A study of Mus musculus with 23 samples.

Results

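The cytochrome P450 genes were taken as the protein-coding mouse genes whose symbols begin with Cyp followed by a digit, after the Ensembl identifiers of the raw count table had been matched to symbols. This gave 100 genes of the 55487 in the table. A further 31 genes with Cyp symbols are pseudogenes or antisense transcripts and were not members. Reads were measured by RNA sequencing of whole jejunum, with fat and Peyer's patches removed, in 23 libraries of mice. Of these, 12 came from Cpa3+/+ (wild type) mice and 11 from Cpa3Cre/+ mice, which carry Cre at 1 copy of the Cpa3 locus and which the series describes as mast cell-deficient. Each genotype was sampled in 5 states. Naive mice were untreated. Immunized mice received 25 µg ovalbumin with 2 mg alum into the peritoneum on days 0 and 14. Challenged mice were immunized in this way and from day 20 could choose between plain water and water containing 20% egg white and 8% sugar, until day 20, 22 or 24, and are called day 1, day 3 and day 5. The Cpa3+/+ groups held 3, 2, 3, 2 and 2 libraries in this order, and the Cpa3Cre/+ groups 2, 2, 2, 2 and 3. Females gave 18 libraries and males 5. The labels gave neither age nor strain, and did not say whether each library is a different mouse. P-values therefore describe the scatter of these libraries only, part of which may be technical.

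P450 enzymes are haem proteins that insert oxygen into small lipophilic molecules, with electrons passed on by P450 oxidoreductase in the endoplasmic reticulum or by adrenodoxin in mitochondria. Enzymes of families 1 to 3 oxidise drugs, food components and other xenobiotics, and many of these genes are induced through the receptors AhR, PXR (Nr1i2) and CAR (Nr1i3). Family 4 and the Cyp2j subfamily act mainly on fatty acids and eicosanoids, and the other families on sterols, bile acids, vitamin D, retinoic acid and steroid hormones. In the small intestine the xenobiotic enzymes are known to sit mostly in absorptive enterocytes of the villus.

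Total counts per library (in M reads) ran from 5.48 to 19.34 with a median of 13.81. The 10 markers of absorptive enterocytes summed to between 9930 and 101000 CPM (counts per M reads of the scaled library), and the 6 markers of proximal small intestine to between 229 and 690 CPM. Hepatocyte markers summed to at most 15.8 CPM and pancreatic acinar markers to at most 1.12 CPM. The 5 mast cell markers, Cpa3 among them, lay between 13.2 and 570 CPM in Cpa3+/+ and between 5.82 and 102 CPM in Cpa3Cre/+ libraries. Among the components holding 25.7, 12.9 and 11.5% of the variance, 3 libraries stood apart: Cpa3+/+ day 1 replicate 2, Cpa3Cre/+ naive replicate 1 and Cpa3Cre/+ day 5 replicate 3. Cpa3Cre/+ naive replicate 1 had the lowest enterocyte sum, 9930 CPM where the others had 24600 CPM or more, and the highest smooth muscle sum, 5720 CPM where the others had at most 3670 CPM. Cpa3Cre/+ day 5 replicate 3 had the highest enterocyte sum. Results are therefore given for all 23 libraries and, where it changes the call, for the 20 others. In whole tissue, fewer cells of a type and less RNA per cell cannot be told apart.

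A small number of P450 genes made up nearly all of the family's transcript in jejunum. Levels were compared between genes as RPKM (reads per kilobase of the longest protein-coding transcript per M reads). Averaged over the libraries, 10 genes stood at 100 RPKM or more and held 86.8% of the summed P450 RPKM. Another 11 genes lay between 10 and 100 RPKM, 15 between 1 and 10, and 64 under 1 RPKM. Reads were found in every library for 44 genes and in no library for 11, among them Cyp19a1 (aromatase) and Cyp8b1 (bile acid 12-alpha-hydroxylase). The filter on low counts kept 47 genes for testing. The 53 others had a mean of at most 0.289 CPM, that of the brain cholesterol hydroxylase Cyp46a1.

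**Figure D1:**
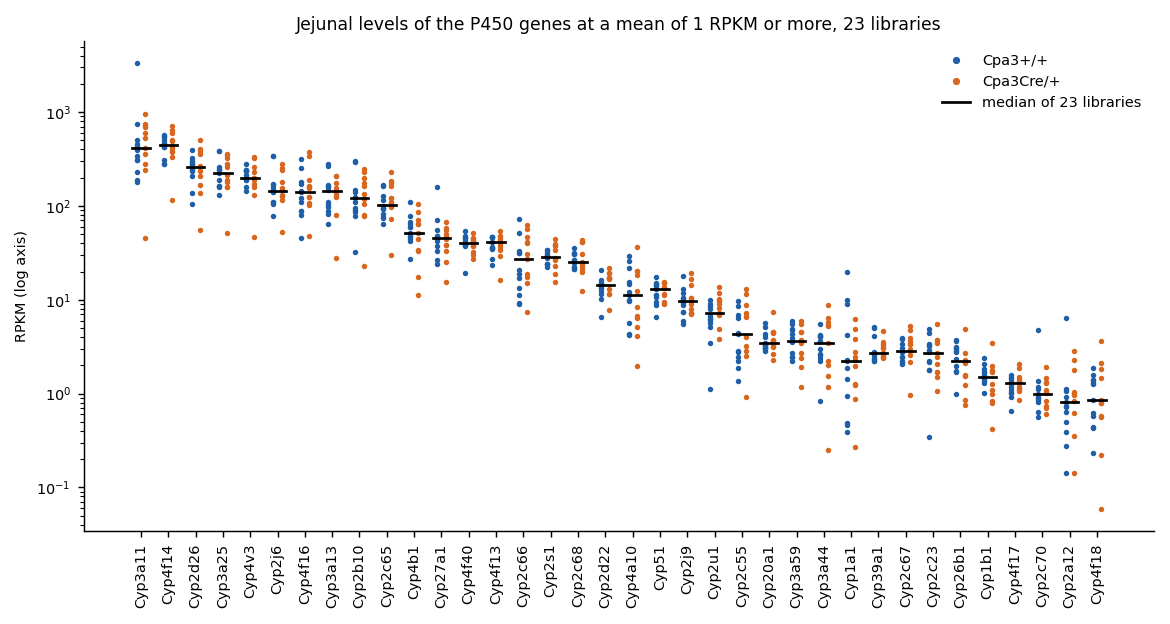
Level of each P450 gene with a mean of 1 RPKM or more in each of the 23 libraries, on a log axis in RPKM. Points are libraries, coloured by genotype, and black bars are medians. The medians run from 444 RPKM for Cyp4f14 and 419 RPKM for Cyp3a11 down to 0.804 RPKM for Cyp2a12, and most genes have a single low library, Cpa3Cre/+ naive replicate 1.

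Families 4, 3 and 2 had similar summed levels, at means of 964.5, 944.3 and 817 RPKM (medians 934.1, 788.6 and 770.8). The library Cpa3+/+ day 1 replicate 2, at 4012 RPKM, raised the mean and the share of family 3. By their means these families held 34.4, 33.7 and 29.2% of the total. Family 27 followed at 48.4 RPKM, family 51 at 12.3, family 1 at 5.07, family 20 at 3.80, family 39 at 3.07 and family 26 at 2.39 RPKM. Families 7, 17 and 11 had 0.895, 0.312 and 0.243 RPKM. Cyp46a1, Cyp21a1 (steroid 21-hydroxylase) and Cyp24a1 (vitamin D 24-hydroxylase) gave 83, 8 and 4 reads over all 23 libraries. Cyp7a1, which starts bile acid synthesis in liver, gave 1 read. Among families 4, 3 and 2 the order of size was not that of level. Family 2 has 49 members, of which 21 passed the filter, family 4 has 20, of which 11 did, and family 3 has 9, of which 5 did. Every other family has at most 3 members and a lower level.

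Among the xenobiotic enzymes, Cyp3a11 ranked highest with a mean of 565 RPKM (range 46.0 to 3339). It is a main drug-oxidising enzyme of mouse liver and gut and a classical PXR target. Cyp2d26 had 262 RPKM (54.8 to 499), Cyp3a25 230 RPKM (52.0 to 389), Cyp3a13 142 RPKM (27.8 to 282), Cyp2b10 138 RPKM (22.8 to 304) and Cyp2c65 116 RPKM (29.7 to 228). Cyp3a13 and Cyp2c65 are known as mainly intestinal members of their subfamilies, and Cyp2b10 is a classical CAR target. Among the fatty acid and eicosanoid enzymes, Cyp4f14 had 448 RPKM (117 to 712), Cyp4v3 207 RPKM (46.8 to 333), Cyp2j6 166 RPKM (52.2 to 340), Cyp4f16 158 RPKM (45.6 to 376) and Cyp4b1 55.9 RPKM (11.1 to 111). Cyp4f14 is a leukotriene B4 omega-hydroxylase and Cyp2j6 an arachidonic acid epoxygenase. The highest sterol enzyme was Cyp27a1, the mitochondrial sterol 27-hydroxylase, with 48.3 RPKM (15.6 to 160). The order of Cyp3a11 and Cyp4f14 rested on 1 library and on the length used. Their medians were 419 and 444 RPKM, their means without Cpa3+/+ day 1 replicate 2 were 439 and 455 RPKM, and per union length of all exons the means over all libraries were 260 and 411 RPKM. Genes of the Cyp3a, Cyp2c, Cyp2d and Cyp4f clusters have close copies, and the handling of reads that fit several copies was not given in the sources used here, so levels of single members of these clusters are uncertain.

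Promoters are shown for the 3 tested genes whose highest library stood farthest above the next, all 3 highest in Cpa3+/+ day 1 replicate 2, and for Cyp1a1, whose replicates varied most. Sequences are from RefSeq on GRCm38.p6, 5′ to 3′ on the gene's strand, and end before an annotated exon of the gene. Cyp3a11 (minus strand) covers chr5:145879965-145880104, Cyp2c70 (minus) chr19:40187334-40187536, Cyp27a1 (plus) chr1:74713285-74713534 and Cyp1a1 (plus) chr9:57697363-57697612. Capitals mark matches on either strand to AGGTCA or AGTTCA, hexamers bound by nuclear receptors, in Cyp3a11, Cyp2c70 and Cyp27a1, and to GCGTG, the core bound by the dioxin receptor AhR, in Cyp1a1.
Cyp3a11: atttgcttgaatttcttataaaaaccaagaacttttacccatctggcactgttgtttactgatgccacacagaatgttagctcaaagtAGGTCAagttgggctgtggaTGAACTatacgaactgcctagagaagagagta
Cyp2c70: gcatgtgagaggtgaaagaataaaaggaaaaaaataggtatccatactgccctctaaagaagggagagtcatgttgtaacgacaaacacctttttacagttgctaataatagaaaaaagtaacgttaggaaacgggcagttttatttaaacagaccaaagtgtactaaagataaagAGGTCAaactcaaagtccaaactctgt
Cyp27a1: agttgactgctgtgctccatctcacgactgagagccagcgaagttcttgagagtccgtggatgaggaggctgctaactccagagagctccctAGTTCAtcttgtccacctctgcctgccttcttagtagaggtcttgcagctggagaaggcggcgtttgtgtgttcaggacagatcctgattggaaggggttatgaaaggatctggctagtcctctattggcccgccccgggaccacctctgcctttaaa
Cyp1a1: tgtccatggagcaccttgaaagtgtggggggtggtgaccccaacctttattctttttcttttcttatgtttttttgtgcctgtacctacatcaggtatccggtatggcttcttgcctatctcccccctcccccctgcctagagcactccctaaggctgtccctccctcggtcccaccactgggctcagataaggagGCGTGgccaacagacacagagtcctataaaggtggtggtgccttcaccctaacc

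RefSeq held a promoter for 77 of the 100 members. Over 250 bases before the start, GCGTG on either strand occurred in 25.6% of the 39 promoters of tested members and in 28.1% of all 32817 promoters. AGGTCA occurred in 17.9% against 14.0%, and AGTTCA in 10.3% against 11.9%. TATAAA, the TATA box, occurred in 38.5% of the tested members' promoters and in 12.4% of all promoters. The sterol element TCACNCCAC and the D-box TTATGTAA were in none of these 39 promoters and in 1.05 and 0.817% of all promoters. These motifs do not overlap in the printed capitals. A match is a description of the sequence and not a binding site.

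The group means of families 4, 3 and 2 differed by less than the libraries within at least 1 group did. Family 4 averaged 1030 ± 267 RPKM (SD, n = 3) in naive Cpa3+/+ mice and 967 ± 46.5 (n = 2) in immunized ones, and the day 1, day 3 and day 5 groups of that genotype had 1000 ± 218 (n = 3), 982 ± 43.1 (n = 2) and 686 ± 12.9 RPKM (n = 2). The Cpa3Cre/+ groups, in the same order, averaged 797 ± 742 (n = 2), 1230 ± 149 (n = 2), 839 ± 217 (n = 2), 891 ± 56.6 (n = 2) and 1090 ± 437 RPKM (n = 3). Family 3 was highest on day 1 in Cpa3+/+ mice, at 1890 ± 1840 RPKM (n = 3), where replicate 2 had 4012 RPKM while replicates 1 and 3 had 797 and 868. In the immunized state the Cpa3Cre/+ libraries had 1193 and 1240 RPKM of family 3 and the Cpa3+/+ libraries 789 and 523. The 2 Cpa3+/+ day 5 libraries were among the lowest for all 3 families, with 695 and 676 RPKM of family 4, 390 and 565 of family 3, and 381 and 542 of family 2. No test was made on these sums.

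**Figure D2:**
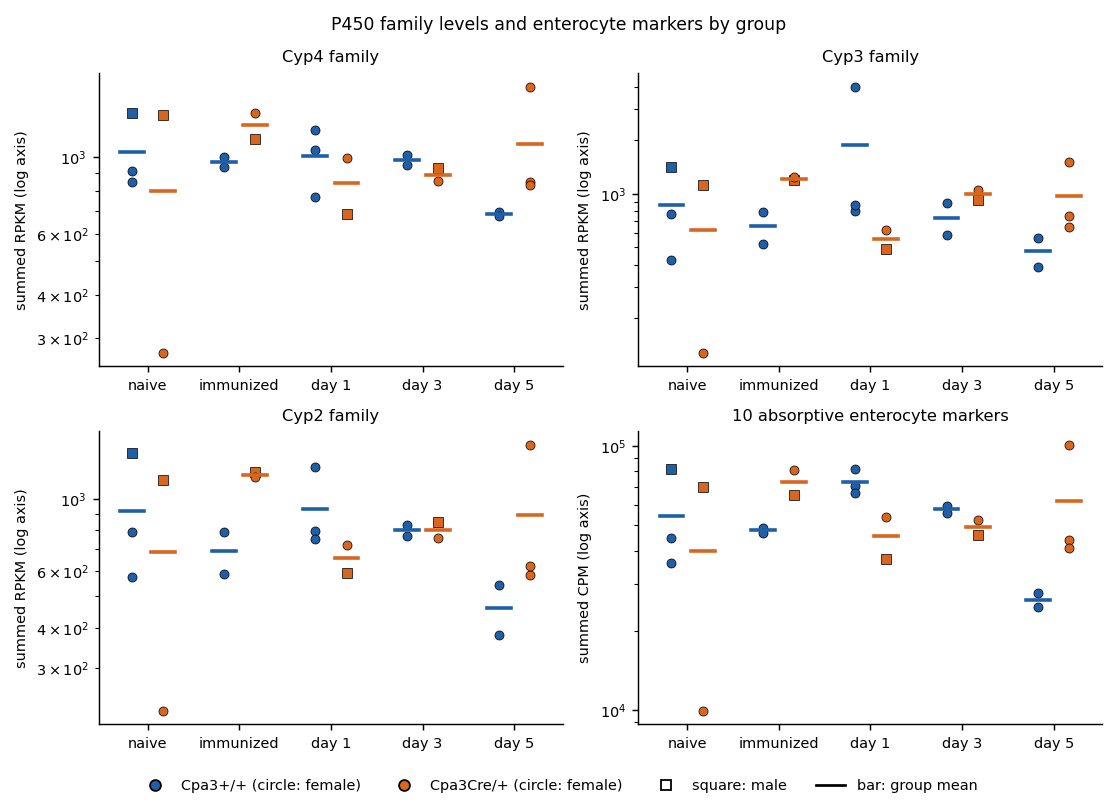
Summed RPKM of families 4, 3 and 2 and summed CPM of 10 absorptive enterocyte markers, by state and genotype, on log axes. Points are libraries (circles female, squares male) and bars are group means. The Cpa3Cre/+ naive library at the bottom of all 4 panels has 272, 127 and 221 RPKM and 9930 CPM, and the Cpa3+/+ day 1 library at 4012 RPKM stands alone in family 3.

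The enterocyte sum moved broadly with these levels, with exceptions. Counted from the lowest library, Cpa3+/+ day 1 replicate 2 ranked 21 for the enterocyte sum and 5 for family 4. Apoa4 and Apoa1, at means of 16400 and 8800 CPM, weighed most in the sum. Between the lowest and the highest library the enterocyte sum differed 10.2-fold, the summed P450 level 9.24-fold, family 4 5.86-fold, family 2 6.66-fold and family 3 31.5-fold. Divided by the enterocyte sum, the summed P450 level differed 1.93-fold between libraries, family 2 1.97-fold, family 4 3.01-fold and family 3 4.65-fold. Family 51 went the other way: its level differed 2.63-fold and its ratio to the enterocyte sum 17.2-fold. The ranges of the enterocyte sum were 36000 to 82100 CPM (naive), 47000 to 48900 (immunized), 66600 to 81900 (day 1), 55700 to 59300 (day 3) and 24600 to 27700 (day 5) in Cpa3+/+ mice. In Cpa3Cre/+ mice they were 9930 to 70000, 65200 to 81300, 37300 to 53800, 46000 to 52300 and 41100 to 101000 CPM. All 10 markers had reads.

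Single libraries held the extremes of many members. Cpa3Cre/+ naive replicate 1 was the lowest library for 23 of the 47 tested genes, including 9 of the 10 genes at 100 RPKM or more. It was the highest library for Cyp20a1, Cyp1b1, Cyp4f17 and Cyp7b1. Of these, Cyp1b1 is known from stromal and vascular cells, and Cyp7b1 hydroxylates oxysterols. Cpa3Cre/+ day 5 replicate 3 was the highest library for 10 genes, Cyp4f14, Cyp2d26 and Cyp4f16 among them. The library Cpa3+/+ day 1 replicate 2 was highest for 9 genes and lowest for 6. It had 7827 CPM of Cyp3a11, 3.53 times the next library, 8.11 CPM of Cyp2c70 (2.47 times) and 303 CPM of Cyp27a1 (2.28 times). It also had the highest Cyp2c38 (10.7 CPM) and Cyp2c29 (5.12 CPM), and the highest P450 oxidoreductase Por (1040 CPM), Nr1i2 (202 CPM) and Nr1i3 (287 CPM). Yet the list of 22 receptors and regulators that holds Nr1i2 and Nr1i3 summed to 2260 CPM there, within the range of the others (1370 to 2910 CPM). The 12 clock output genes summed to 1290 CPM in it, where the others had at most 871 CPM. The part of these genes in its P450 levels was not tested. The same library was lowest for Cyp4f16, Cyp4f40, Cyp51, Cyp2u1, Cyp2c23 and Cyp17a1. Its hepatocyte sum, 15.8 CPM, was the highest of all libraries, and its enterocyte sum of 81900 CPM lay within the range of the others. Averaged over all libraries, the hepatocyte markers Ttr and Apoh had 3.94 and 1.35 CPM. The other hepatocyte markers had at most 0.442 CPM, Alb among them with 0.168 CPM. The part of either cell type in the Cyp3a11 level was not tested.

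**Figure D3:**
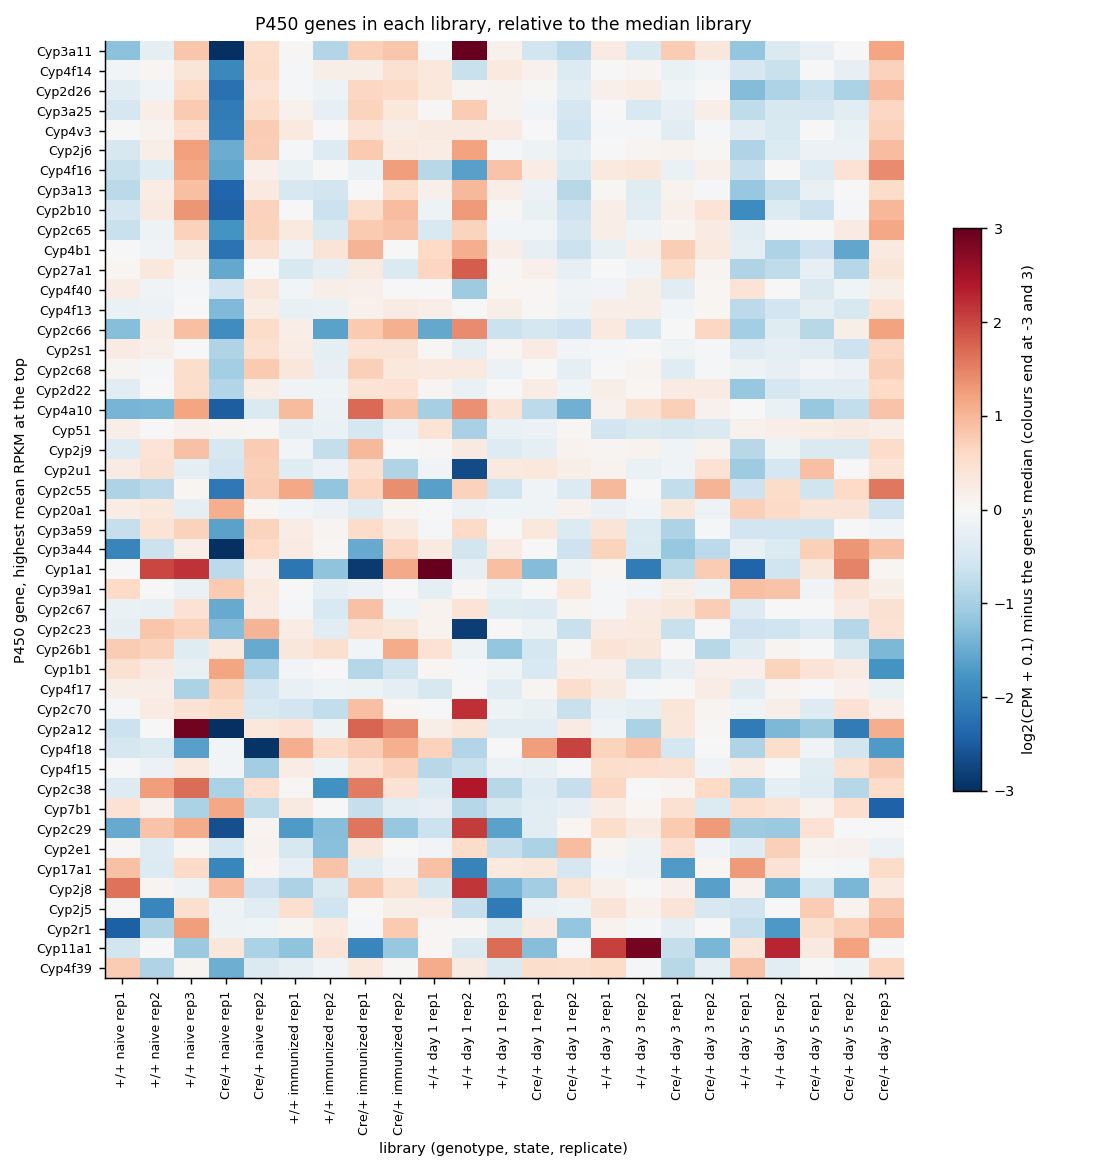
Level of each of the 47 tested P450 genes in each library, as log2(CPM + 0.1) minus the gene's median over the 23 libraries; colours end at −3 and 3. Rows run from the highest to the lowest mean RPKM and columns are libraries in order of state, with Cpa3+/+ before Cpa3Cre/+. Cpa3Cre/+ naive replicate 1 is low in most upper rows, and Cpa3+/+ day 1 replicate 2 is high for Cyp3a11, Cyp27a1 and several Cyp2c genes and low for Cyp4f16, Cyp2u1 and Cyp2c23.

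Members differed in how much replicates of a group varied. The standard deviation within groups, on the log2(CPM + 0.1) scale, had a median of 0.69 over the 47 tested genes. It was smallest for the oxysterol hydroxylase Cyp39a1 (0.25) and for Cyp51, the lanosterol demethylase of cholesterol synthesis (0.29). It was largest for the AhR target Cyp1a1 (1.38), for Cyp2a12 (1.32), Cyp2c29 (1.22) and Cyp3a11 (1.15). Cyp1a1 spanned 73.5-fold between libraries and Cyp39a1 2.32-fold.

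Differences were tested gene by gene with edgeR's quasi-likelihood F test in 1 model of the 10 groups with sex as a covariate, and p-values were adjusted over all 17236 genes tested (Benjamini-Hochberg). At an adjusted p under 0.05, 0 of the 47 P450 genes were called in any of the 21 comparisons, and the smallest adjusted p of a member was 0.111. In the joint test of all 10 groups 16 genes passed in all (0.0928%). There 5 of the 47 members (10.6%) had an unadjusted p under 0.05, beside 10.8% of all genes. These were Cyp11a1, Cyp4f18 and Cyp39a1 (edgeR adjusted p = 0.324, 0.341 and 0.373), Cyp27a1 and Cyp1a1. DESeq2 called 4 members in the joint test, Cyp3a11, Cyp4f18, Cyp11a1 and Cyp39a1, beside 6.02% of all genes. Without the 3 libraries edgeR called 3, Cyp4f18, Cyp2d26 and Cyp4f13, beside 7.18% of all genes. Cyp4f18 was the only member called by both. Without the filter on low counts edgeR called 19 of 89 members, beside 7.86% of all genes.

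Averaged over the 5 states, the genotypes differed in 5 of all genes (0.029%) and in 0 of the 47 P450 genes by edgeR. DESeq2 also called 0 members (beside 0.0464% of all genes), as did edgeR with the enterocyte marker level as a covariate (0.0058%), and edgeR without the filter called 1 (0.153%). The members' median log2 fold change, Cpa3Cre/+ against Cpa3+/+, was −0.06, beside 0.03 over all genes. By edgeR 1 member had an unadjusted p under 0.05 (2.13%, beside 1.12% of all genes), and by DESeq2 2. It was Cyp11a1, the mitochondrial side-chain cleavage enzyme that makes pregnenolone from cholesterol, with −1.62 ± 0.59 (SE). The steroid 17-hydroxylase Cyp17a1 (mean 0.312 RPKM) had −0.84 ± 0.42 and the PPAR-alpha target Cyp4a10, a fatty acid omega-hydroxylase, −0.61 ± 0.35 (edgeR adjusted p = 1 for all 3).

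Cyp11a1 (chromosome 9, 58006411 to 58027023, GRCm38) was a rare transcript with 156 reads over all libraries. Before challenge the Cpa3+/+ libraries had 0.165, 0.290 and 0.0798 CPM when naive and 0.0691 and 0.405 CPM when immunized. Under challenge they had 0.308, 0.186 and 1.14 CPM on day 1, 1.53 and 2.76 CPM on day 3, then 0.402 and 1.80 CPM on day 5. Naive Cpa3Cre/+ libraries had 0.390 and 0.101 CPM and immunized ones 0 and 0.0764 CPM, and on days 1, 3 and 5 they had 0.0621 and 0.294, 0.139 and 0.0498, then 0.372, 0.794 and 0.282 CPM. The 4 highest values were thus all from challenged Cpa3+/+ mice, and the genotypes overlapped in every state but day 3. On day 3 the Cpa3+/+ libraries held 60 reads and the Cpa3Cre/+ libraries 3, a ratio of 24.5 per effective library size (exact 95% interval for counting error only, 7.98 to 122), and the edgeR adjusted p was 1. Day 3 was picked for this ratio after the values were seen, so its interval is not a test of genotype. Cyp11a1 passed the low-count filter through the libraries with most reads, which were mostly challenged Cpa3+/+ ones. The mast cell marker sum stood beside it in the same libraries. It was 472 and 464 CPM on day 3 and 90.6 and 570 CPM on day 5 in Cpa3+/+ mice, against 42.6 to 58.8 and 67.6 to 102 CPM in Cpa3Cre/+ mice. The third day 1 Cpa3+/+ library, with 1.14 CPM of Cyp11a1, had 159 CPM where the other two had 48.6 and 41.8 CPM. All 5 markers had reads, and their part in the Cyp11a1 difference was not tested.

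**Figure D4:**
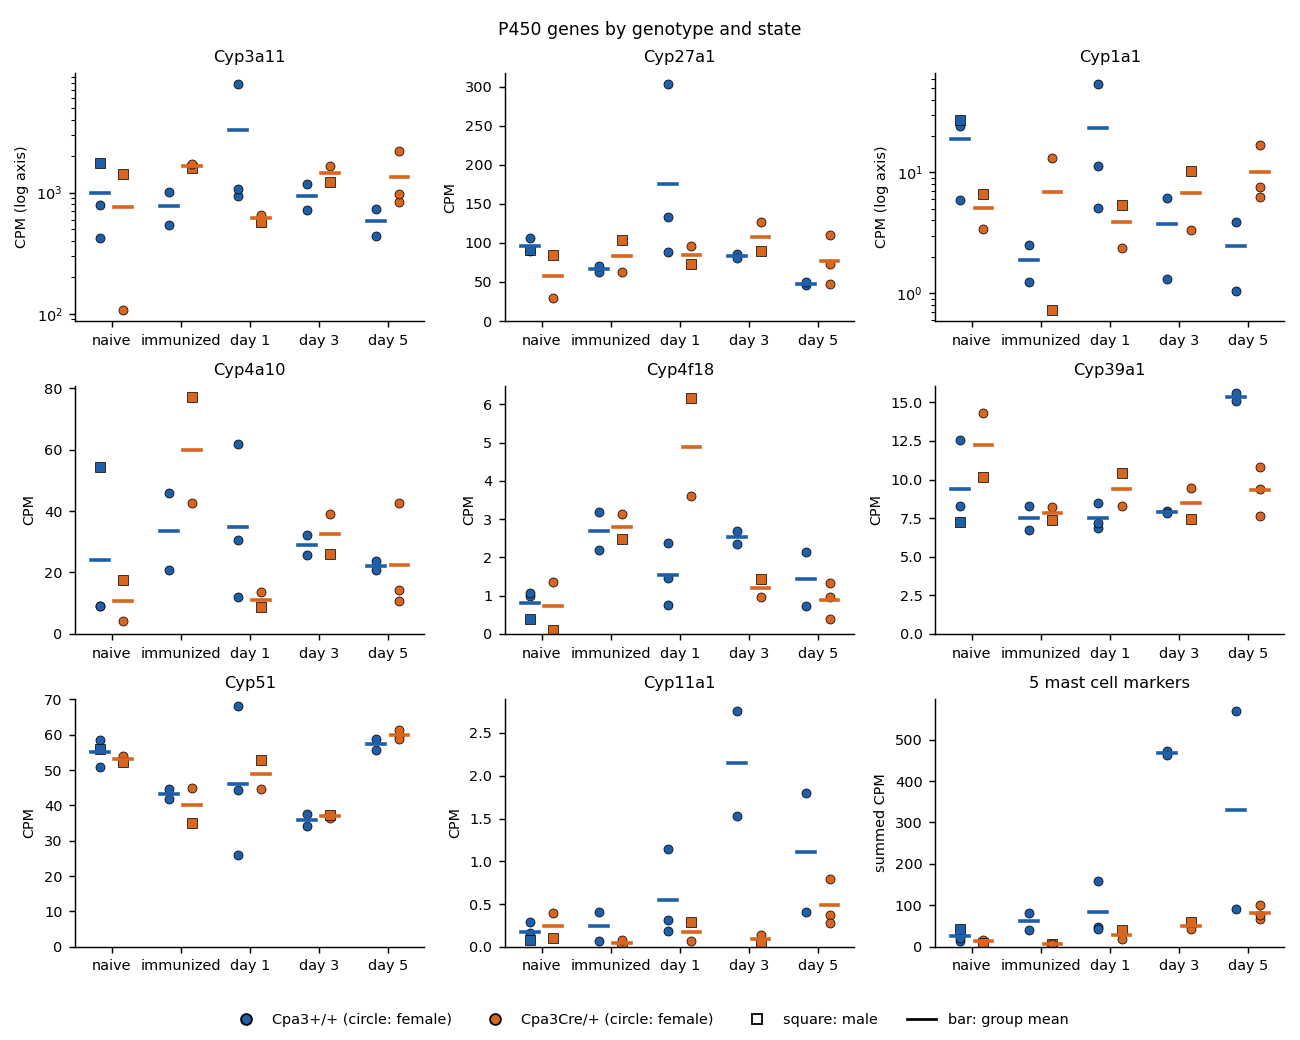
CPM of 8 P450 genes and the summed CPM of 5 mast cell markers, by state and genotype. Points are libraries (circles female, squares male), bars are group means, and the axes of Cyp3a11 and Cyp1a1 are logarithmic. Cyp11a1 and the mast cell markers are both high in the Cpa3+/+ day 3 libraries and in 1 of the 2 Cpa3+/+ day 5 libraries, and Cyp39a1 is highest in the Cpa3+/+ day 5 libraries, at 15.6 and 15.1 CPM.

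Within single states, edgeR called 0 genes of any kind between the genotypes in all 5 states (0%). Members at an unadjusted p under 0.05 numbered 1 in naive mice (2.13%, beside 5.34% of all genes), 0 in immunized (beside 0.951%), 9 on day 1 (19.1%, beside 7.39%), 1 on day 3 (2.13%, beside 1.55%) and 4 on day 5 (8.51%, beside 9.26%). In naive mice Cyp2a12, a testosterone hydroxylase, had a log2 fold change of −2.50 ± 0.99, with 0.827, 1.35 and 10.8 CPM in Cpa3+/+ and 0 and 1.71 CPM in Cpa3Cre/+ libraries. The 10.8 CPM library was male. Cyp20a1, an orphan P450, had 0.60 ± 0.29 and Cyp2c67 −0.70 ± 0.36. The members' median was −0.45, beside 0.05 over all genes. DESeq2 called 0 members in each of the 5 states.

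In immunized mice 36 of 47 members had a positive log2 fold change, Cpa3Cre/+ against Cpa3+/+, with a median of 0.27 beside 0.02 over all genes. Cyp2c70, a muricholic acid-forming enzyme of mouse bile acid metabolism, had 1.31 ± 0.72. Cyp1a1 had 1.85 ± 1.22 with 0.728 and 13.1 CPM in Cpa3Cre/+ and 1.24 and 2.51 CPM in Cpa3+/+ libraries. Cyp2j8 had 2.03 ± 1.35. The sign for Cyp1a1 rested on 1 library: without Cpa3Cre/+ immunized replicate 2 the value was −2.56. The enterocyte sum was also higher in the immunized Cpa3Cre/+ libraries. The fit with the enterocyte covariate covers this comparison, but its values for it are not reported here. The part of the enterocyte share was not tested further.

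On day 1 of challenge 34 of 47 members had a negative log2 fold change, with a median of −0.43 beside 0.02 over all genes. Cyp3a11 had 937, 7827 and 1069 CPM in Cpa3+/+ and 656 and 572 CPM in Cpa3Cre/+ libraries, so the groups did not overlap, and its log2 fold change was −2.75 ± 0.98 (edgeR adjusted p = 0.635). Without Cpa3+/+ day 1 replicate 2, the library at 7827 CPM, it was −1.04 (edgeR adjusted p = 0.83). Cyp4a10 had 11.8, 61.8 and 30.7 against 13.6 and 8.67 CPM, which overlap, with −1.97 ± 0.78. Cyp4f18 ran the other way, with 2.38, 0.746 and 1.45 against 3.60 and 6.17 CPM and 1.89 ± 0.69 (1.2 without Cpa3Cre/+ day 1 replicate 2). In these libraries the B cell follicle markers summed to 15.4, 6.24 and 5.34 against 16.1 and 59.2 CPM and the macrophage markers to 206, 133 and 196 against 242 and 344 CPM, and their part was not tested. Cyp1a1 had 53.5, 5.03 and 11.3 against 2.36 and 5.36 CPM. The count of 9 members fell to 3 without Cpa3+/+ day 1 replicate 2 (beside 3.75% of all genes), to 0 without Cpa3Cre/+ day 1 replicate 2 (beside 1.15%), to 1 in females alone (beside 1.3%) and to 1 with the enterocyte marker level as a covariate (beside 3.45%). It rose to 15 without Cpa3Cre/+ day 1 replicate 1 (beside 17%).

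On day 3, after Cyp11a1, the smallest p-values belonged to Cyp3a44, with 10.8 and 5.01 CPM in Cpa3+/+ and 3.05 and 3.93 CPM in Cpa3Cre/+ libraries (−1.44 ± 0.88), and to Cyp3a59 (−0.85 ± 0.54). On day 5 Cyp39a1, an oxysterol 7-alpha-hydroxylase of bile acid synthesis, had 15.6 and 15.1 CPM in Cpa3+/+ and 7.67, 10.8 and 9.41 CPM in Cpa3Cre/+ libraries. These do not overlap, and the log2 fold change was −0.72 ± 0.25 (edgeR adjusted p = 0.524). The vitamin D 25-hydroxylase Cyp2r1 had 0.241 and 0.0668 against 0.670, 0.794 and 1.03 CPM (2.41 ± 0.90), which is 4 reads against 30. Cyp2d22 had 18.0 and 28.2 against 31.9, 32.1 and 60.1 CPM (0.84 ± 0.32). On day 5, 36 of 47 members had a positive value, with a median of 0.44 beside −0.03 over all genes.

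Immunization compared with the naive state, averaged over the genotypes, gave 0 calls among all genes by edgeR (0%), and DESeq2 called 35 genes (0.211%) and 0 members. Of the members, 5 had an unadjusted p under 0.05 (10.6%, beside 10.9% of all genes). Cyp4f18, a leukotriene B4 hydroxylase of myeloid cells, had 0.992, 1.06 and 0.399 CPM in naive and 3.18 and 2.19 CPM in immunized Cpa3+/+ mice. In Cpa3Cre/+ mice it had 1.36 and 0.101 against 2.48 and 3.13 CPM. All 4 immunized libraries thus lay above all 5 naive libraries, and the log2 fold change was 1.82 ± 0.52 (edgeR adjusted p = 0.377). Without the 3 libraries it was called, at 3.25 ± 0.60 (edgeR adjusted p = 0.0324, beside 0.243% of all genes called), with 1 naive Cpa3Cre/+ library left, which is male. With the enterocyte covariate it was called at 3.12 (beside 0.244%). Cyp4f18 overlaps Zfp961, and the strand setting of the counting was not given in the sources used here, so reads of the pair may not be separate. The summed macrophage markers were 144 to 163 and 56.9 to 251 CPM in the naive and 247 to 305 and 137 to 222 CPM in the immunized groups, Cpa3+/+ before Cpa3Cre/+. The 6 B cell follicle markers, all with reads, summed to 5.67 to 26.1 and 8.35 to 9.66 CPM in the naive and 8.84 to 114 and 19 to 95.7 CPM in the immunized groups. The immunized libraries at 114 and 95.7 CPM were those with 3.18 and 3.13 CPM of Cyp4f18. The part of either cell type was not tested.

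Cyp4a10 had 8.93, 9.08 and 54.2 CPM in naive and 45.9 and 20.9 CPM in immunized Cpa3+/+ mice. In Cpa3Cre/+ mice it had 4.19 and 17.5 against 77.0 and 42.8 CPM. The groups overlapped in Cpa3+/+ mice through the male naive library and not in Cpa3Cre/+ mice, and the log2 fold change was 1.87 ± 0.58 (edgeR adjusted p = 0.377). In females alone the value for Cyp4a10 was 2.67. That fit leaves out the male naive libraries at 54.2 and 17.5 CPM. It keeps 1 naive Cpa3Cre/+ library, replicate 1 with the lowest enterocyte sum, and 1 immunized one. Over all 23 libraries Cyp39a1 had −0.51 ± 0.20. Within Cpa3+/+ mice Cyp1a1 had 5.95, 24.1 and 27.1 CPM in the naive and 1.24 and 2.51 CPM in the immunized state (−3.16 ± 1.22, edgeR adjusted p = 1). Within Cpa3Cre/+ mice, without naive replicate 2, 16 members were called beside 11.1% of all genes. That comparison then rests on naive replicate 1, the library with the lowest enterocyte sum.

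After 1 day of challenge, compared with the immunized state and averaged over genotypes, edgeR called 0 genes (0%), and 2 members had an unadjusted p under 0.05 (4.26%, beside 3.16% of all genes). Cyp4f15 had −0.68 ± 0.29, Cyp27a1 0.72 ± 0.34 and Cyp4a10 −1.07 ± 0.53. Cyp27a1 had 133, 303 and 88.3 CPM on day 1 against 62.7 and 70.5 CPM in immunized Cpa3+/+ mice, which do not overlap. In Cpa3Cre/+ mice it had 95.7 and 72.5 against 104 and 63.2 CPM, which do. After 3 days edgeR again called 0 genes (0%), and 0 members had an unadjusted p under 0.05 (beside 9.58% of all genes). Cyp11a1 had 2.14 ± 1.04, Cyp2c29 1.38 ± 0.71 and Cyp2a12 −1.04 ± 0.69. DESeq2 called 0 members on either day.

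Within each genotype edgeR called 0 members in all 8 comparisons, and DESeq2 called 1, Cyp39a1 for day 5 against immunized in Cpa3+/+ mice (beside 1.14% of all genes). The share of all genes called was 0% in 7 of them and 0.0348% for day 5 against immunized in Cpa3Cre/+ mice. In Cpa3+/+ mice members at an unadjusted p under 0.05 numbered 2 for immunized against naive (4.26%, beside 1.69% of all genes), and for day 1, 3 and 5 against immunized 5, 1 and 3 (10.6, 2.13 and 6.38%, beside 5.37, 4.93 and 9.29%). In Cpa3Cre/+ mice they numbered 7 (14.9%, beside 13.1%), 1, 0 and 3 (2.13, 0 and 6.38%, beside 2.12, 4.31 and 9.74%). The 5 on day 1 in Cpa3+/+ mice were Cyp1a1 (3.64 ± 1.21), Cyp27a1 (1.39 ± 0.48), Cyp2c70 (1.83 ± 0.64), Cyp2c29 (2.53 ± 1.02) and Cyp3a11 (2.08 ± 0.93), all higher, and all but Cyp1a1 were highest in replicate 2. Without that library the values were 4.06, 0.69, 0.58, 0.51 and 0.33. Across these comparisons and the ones averaged over genotypes the immunized libraries serve as shared controls.

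Day 5 was the state in which most genes differed from the immunized state, with 334 called by edgeR (1.94%) and 0 of the 47 members. There 6 members had an unadjusted p under 0.05 (12.8%, beside 17.3% of all genes). DESeq2 called 957 of 16567 genes (5.78%) and also 0 members. Cyp11a1 had 2.68 ± 0.86 (edgeR adjusted p = 0.111), Cyp26b1, which degrades retinoic acid, −1.01 ± 0.35 (0.133), and Cyp39a1 0.58 ± 0.20 (0.133). In Cpa3Cre/+ mice the immunized libraries held 1 read of Cyp11a1 and the day 5 libraries 18, a ratio of 13.2. Its exact 95% interval, for counting error only, was 2.08 to 549, for a ratio also picked after the values were seen. The smallest edgeR adjusted p of any member in that comparison within Cpa3Cre/+ mice was 0.302. Cyp26b1 had 12.6 and 14.0 CPM in immunized and 7.73 and 10.6 CPM in day 5 Cpa3+/+ mice, and 9.46 and 21.7 against 9.97, 7.15 and 3.86 CPM in Cpa3Cre/+ mice. It was lower on day 5 without overlap in Cpa3+/+ mice alone. Cyp51 had 41.9 and 44.6 against 55.8 and 58.9 CPM in Cpa3+/+ and 35.0 and 45.0 against 59.7, 61.3 and 58.6 CPM in Cpa3Cre/+ mice, higher on day 5 without overlap in both, at 0.49 ± 0.20 (edgeR adjusted p = 0.205). Its naive, immunized and day 5 means were 55.1, 43.2 and 57.3 CPM in Cpa3+/+ mice. In Cpa3Cre/+ mice they were 53.1, 40 and 59.9 CPM. The day 5 means thus lay nearer the naive than the immunized means. Cyp51 overlaps Akap9 on the opposite strand, and their reads may not be separate.

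The day 5 result changed with 1 library set. Without the 3 libraries, a choice made after their values were seen, edgeR called 14 of 48 members (29.2%), beside 3294 of 17731 genes (18.6%). Of the members 5 were higher and 9 lower on day 5, with a median of −0.40 beside 0.03 over all genes. The lower ones ranged in mean level from 447 RPKM (Cyp4f14) to 1.11 RPKM (Cyp2a12). Cyp2d26 fell by 1.15 ± 0.18 (edgeR adjusted p = 4e-04), with 432 and 396 CPM in immunized and 180 and 233 CPM in day 5 Cpa3+/+ mice. In Cpa3Cre/+ mice it had 686 and 660 against 282, 232 and 849 CPM, the last being the library left out. Cyp4b1 fell by 1.12, Cyp2s1, a P450 of epithelia, by 0.63, Cyp4f14 by 0.56, Cyp4f13 by 0.52, Cyp3a25 by 0.65, Cyp2d22 by 0.69, Cyp2c23 by 0.78 and Cyp2a12 by 2.43. Cyp51, Cyp20a1, Cyp1b1, Cyp11a1 and Cyp39a1 rose by 0.49, 0.57, 0.77, 2.87 and 0.58. The left-out day 5 library had the highest enterocyte sum, 101000 CPM, and the 4 day 5 libraries that stayed had 24600 to 43900 CPM, all below the immunized libraries at 47000 to 81300 CPM. With the enterocyte marker level as a covariate in all 23 libraries, the members called were Cyp26b1 (−1.30) and Cyp4f18 (−2.10), beside 5.42% of all genes. Leaving out Cpa3Cre/+ day 5 replicate 3 alone called 1 member, Cyp2a12, beside 7.63% of all genes. Cpa3+/+ day 1 replicate 2 and Cpa3Cre/+ naive replicate 1, also left out above, belong to neither state compared. They enter this comparison only through what all groups share in the fit, such as the estimate of spread. From 23 to 20 libraries Cyp51 kept 0.49 while its SE went from 0.20 to 0.13. Cyp39a1 kept 0.58, with an SE of 0.20 and then 0.19. How much of the lower day 5 levels goes with the enterocyte share was not tested further.

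**Figure D5:**
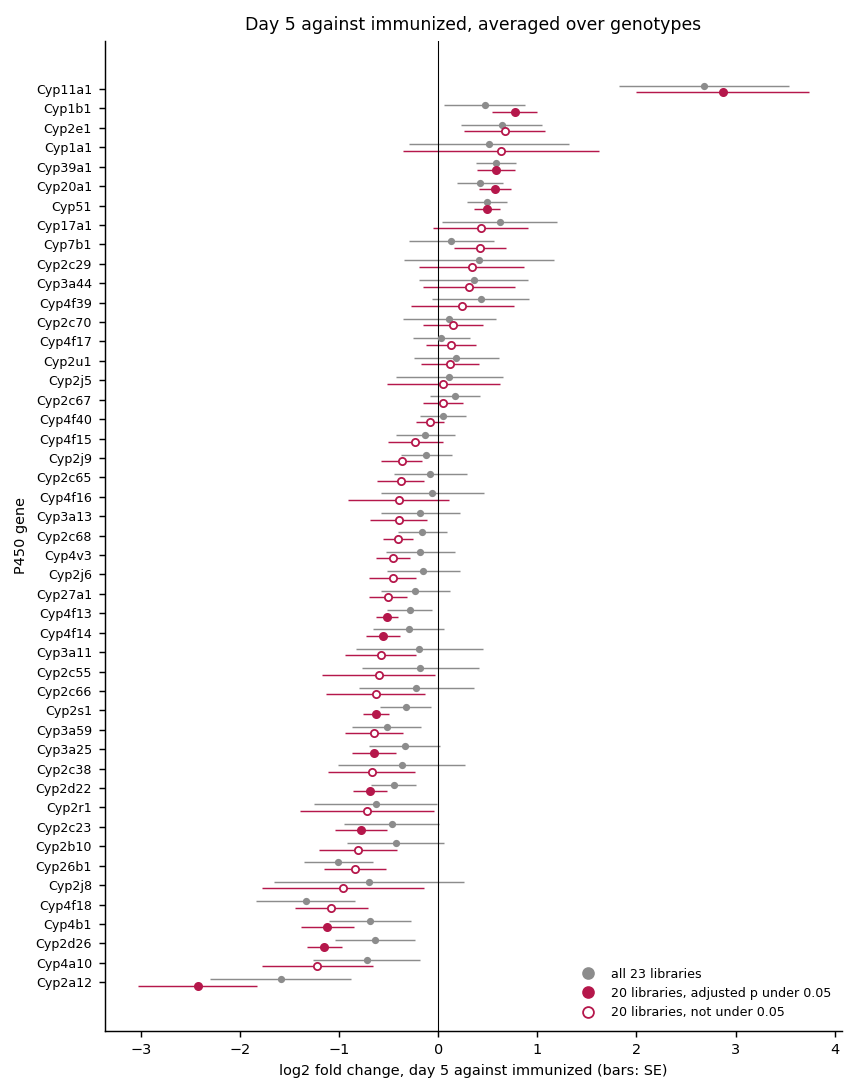
Log2 fold change of each tested P450 gene, day 5 against immunized and averaged over genotypes, with SE bars. Grey points are from all 23 libraries and red points from the 20 without the 3 libraries that stood apart, filled where the edgeR adjusted p was under 0.05. Of the red points 14 are filled, 5 to the right of 0 and 9 to the left.

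The response to challenge was compared between genotypes by a joint test of the day 1, 3 and 5 interaction terms. It called 0 genes by edgeR (0%) and 5 by DESeq2 (0.029%), with 0 members in either, and 5 members had an edgeR unadjusted p under 0.05 (10.6%, beside 4.62% of all genes). They were Cyp39a1, Cyp1a1, Cyp2c70, Cyp4f18 and Cyp3a11 (edgeR adjusted p = 0.797 for all 5). Day 5 against immunized gave 1.03 ± 0.28 for Cyp39a1 in Cpa3+/+ mice (edgeR adjusted p = 0.275), where it had 8.29 and 6.73 against 15.6 and 15.1 CPM. In Cpa3Cre/+ mice it had 7.35 and 8.25 against 7.67, 10.8 and 9.41 CPM, which overlap. DESeq2 and the fit without the 3 libraries both called Cyp39a1 in Cpa3+/+ mice, beside 1.14 and 5.32% of all genes.

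Liver P450 genes are known to differ by sex. In jejunum edgeR called 6 genes by sex (0.0348%) and 0 members. Members at an unadjusted p under 0.05 numbered 10 (21.3%, beside 2.6% of all genes), 7 higher and 3 lower in males. Cyp2c67 had 0.83 ± 0.23, Cyp2j9 0.74 ± 0.23 and Cyp26b1 −0.89 ± 0.32, male against female (edgeR adjusted p = 0.929 for all 3). The count fell to 2 without Cpa3Cre/+ naive replicate 1 (beside 0.742% of all genes), to 2 without Cpa3+/+ naive replicate 3 (0.837%), to 3 without Cpa3Cre/+ naive replicate 2 (0.786%) and to 3 with the enterocyte covariate (0.864%). It rose to 17 without either day 1 Cpa3Cre/+ library (beside 10.9 and 10.8%). Of the 5 males 4 were Cpa3Cre/+, and every group with a male also held a female.

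The partners and regulators of P450 enzymes were read from the same fits. In the comparison of day 5 with immunized mice 4 of 21 tested receptors and regulators were called, all lower, beside 1.94% of all genes. The liver X receptor Nr1h2, which senses oxysterols, fell by 1.32 ± 0.27 (edgeR adjusted p = 0.0211), with 79.4, 89.2, 120 and 109 CPM in the immunized libraries and 26.3, 35.1, 38.1, 28.4 and 87.3 CPM on day 5. The retinoic acid receptor Rara fell by 1.02 ± 0.22 (edgeR adjusted p = 0.0278) and Srebf2, the regulator of cholesterol synthesis genes, by 0.64 ± 0.14 (0.0287). For Nr1h2 the 4 lower day 5 libraries did not overlap with the immunized ones, and the fifth, Cpa3Cre/+ replicate 3, did. Without the 3 libraries Nr1h2, Rara and Srebf2 fell by 1.69, 1.30 and 0.73. Of 12 clock output genes 1 was called, Nr1d1, which fell by 1.32 ± 0.29 (edgeR adjusted p = 0.0274). The calls of Nr1h2, Rara, Srebf2 and Nr1d1 were each lost in females alone and on leaving out some single immunized or day 5 libraries, with all values still negative.

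No other gene of these lists was called in any of the 21 comparisons. The 9 tested redox partners, the 9 haem synthesis genes, the 4 tested AhR targets without Cyp symbols and the prostacyclin and thromboxane synthases Ptgis and Tbxas1 had 0 calls by edgeR. In the joint test of the 10 groups the smallest edgeR adjusted p-values were 0.134 for Hlf, 0.234 for Per2 and Tef (clock output), 0.318 for Ppara (after Srebf2 at 0.276 and Nr1h2 at 0.280), 0.429 for Por, 0.487 for Cyb5r3 and 0.539 for Fdx1 (redox partners). Among haem synthesis genes they were 0.368 for Cpox, 0.523 for Alas2 and 0.616 for Alad, and Nqo1, Tiparp and Ugt1a6a had 0.680, 0.680 and 0.934. Ptgis and Tbxas1 had 0.680 and 0.710. All 12 clock output genes had an edgeR unadjusted p under 0.05 in this joint test, beside 10.8% of all genes. For immunized against naive the number was 8 in Cpa3+/+ (median log2 fold change −0.96) and 3 in Cpa3Cre/+ mice (0.06). These stood beside 1.69 and 13.1% of all genes. For day 1 against immunized it was 9 (1.51) and 1 (−0.22), beside 5.37 and 2.12%. The part of the clock in the P450 levels was not tested. The level of Por ran from 75.7 CPM in Cpa3Cre/+ naive replicate 1 to 1040 CPM in Cpa3+/+ day 1 replicate 2, the libraries that also held the lowest and the highest summed P450 level.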

How the data were processed

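Per the labels' protocols, jejunal total RNA was purified on PureLink columns and TruSeq stranded libraries were prepared. The submitters' processing notes name the aligner STAR, featureCounts of Subread 1.5.1 and the build mm10 (GRCm38). The authors deposited raw counts of reads for each Ensembl gene, which were used without change. How strand and multi-mapping reads were handled, and the annotation release, is not given in the sources used here.

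Symbols, gene types, positions and lengths came from GENCODE vM21 on GRCm38 (55227 of 55487 genes matched). Groups were read from the titles. edgeR 4.0.16 in R 4.3.3 was run with TMM scaling, filterByExpr by group and a robust quasi-likelihood fit of 10 group means and sex (12 residual degrees of freedom, biological coefficient of variation 28.6%). Tests were two-sided, with Benjamini-Hochberg adjustment over all 17236 genes tested and a threshold of 0.05. CPM used the TMM factors. SE was obtained by dividing the size of the log2 fold change by the root of F. The code was tested on simulated data. Alternatives were DESeq2 1.42.0, its size factors in edgeR, no filter, no sex covariate, females only, a replicate block and each library left out. After the data were seen, fits without 3 libraries and with an enterocyte covariate, and union exon lengths, were added.

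Genes given with values were the 12 at the highest mean RPKM, the highest member of each family, the 3 with the smallest p per comparison, any called, and likewise from lists of partners and regulators, of which 1 called regulator is counted but not reported by name here. Genes named for extreme libraries or in 1 alternative were chosen after their values were seen. Members and lists were chosen with earlier results of these data known.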

Additional observations from a re-analysis of the deposited data

Results flagged for a closer look

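Pseudogenes with Cyp symbols stood outside the comparisons, and 3 of the 31 had more reads in some library than the limit of 3 reads that a count of 0 allows. Cyp4f41-ps, annotated as a transcribed pseudogene of the Cyp4f cluster, held 310 reads over all libraries and passed the limit in all 23. Cyp4b1-ps2 held 70 reads and passed it in 7 libraries, and Cyp2c52-ps held 61 reads and passed it in 5. Whether these reads belong to the pseudogenes or to their close coding copies was not tested.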

How the results depend on the processing

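Of the counts of members called and the family levels, 772 values under an alternative stayed within the limits of the main value and 33 moved, all 33 of them counts that rose from 0. A count stayed if it was still 0. A family level moved only if its mean shifted by at least the SD within groups. Leaving out a single library could hardly shift a mean that far, so the unmoved family levels say little. DESeq2 called 4 members in the joint test and 1 for day 5 against immunized in Cpa3+/+ mice (beside 6.02 and 1.14% of all genes). Without the 3 libraries that stood apart, edgeR called 3 members in the joint test, 1 for immunized against naive, 14 for day 5 against immunized, 2 for that comparison in Cpa3+/+ and 4 in Cpa3Cre/+ mice (beside 7.18, 0.243, 18.6, 5.32 and 8.34% of all genes). The enterocyte covariate gave 1, 1 and 2 for the first 3 of these (beside 0.244, 0.244 and 5.42%). In females alone 7 members were called for immunized against naive and 10 for the same comparison in Cpa3Cre/+ mice (beside 5.46 and 6.88% of all genes). Leaving out single libraries gave 0 to 5 for immunized against naive, 0 to 16 for it in Cpa3Cre/+ mice (both highest without Cpa3Cre/+ naive replicate 2, beside 3.45 and 11.1% of all genes), and 0 to 1 for day 5 against immunized (highest without Cpa3Cre/+ day 5 replicate 3, beside 7.63%).

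Without the filter on low counts 32067 genes were tested and 19 members were called in the joint test (beside 7.86% of all genes), 1 for the genotype average (0.153%), 3, 1, 8, 1 and 4 between genotypes in the 5 states (0.518, 0.24, 0.727, 0.153 and 1.45%), and 13 for the interaction (2.27%). For immunized against naive, day 1 and day 5 the counts averaged over genotypes were 4, 3 and 5 (beside 1.8, 0.387 and 2.83%). In Cpa3+/+ mice they were 1, 4 and 1 (immunized against naive, day 1, day 3, beside 0.356, 0.82 and 0.418%), in Cpa3Cre/+ mice 11, 2 and 1 (immunized against naive, day 1, day 5, beside 2.42, 0.203 and 1.06%), and 3 by sex (0.209%). The SE shrank in that fit, for Cyp3a11 on day 1 from 0.98 to 0.41 at nearly the same fold change (−2.75 and −2.73), and the cause was not tested. Of single-gene values 1 reversed, Cyp1a1 between immunized genotypes without Cpa3Cre/+ immunized replicate 2 (leaving out single libraries gave −2.56 to 2.75). With the replicate number as a block 0 members were called in every comparison and the call of Srebf2 was lost (−0.63). Libraries of the same number did not deviate together (median r = −0.00547 over 93 pairs, 9 of 23 libraries correlating best with their own number). Most groups held 2 libraries, and rare members such as Cyp11a1 (156 reads) carry large counting error.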
